A study of Mus musculus with 6 samples.

Results

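The genes described here encode enzymes of cholesterol and fatty acid synthesis, the sensors that control them, and proteins that carry sterols through the cell and out of it. They were chosen by name. Of 33 genes listed, 28 had an array row annotated with that gene symbol alone, among 30098 genes measured in this way. Where a gene had more than 1 such row, the row with the highest mean over all arrays was used. The other members are Acat2, which is named only, and Tm7sf2, Msmo1, Srebf1 and Scd2, whose rows carry several symbols. The row of Msmo1 carries the current and an older symbol of the same gene, and its values are given apart from the 28.

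The samples were aggregates of R1 mouse embryonic stem cells, each grown in the liquid core of an alginate microcapsule, and whole-aggregate RNA was hybridised to Clariom D arrays. There were 3 arrays after pre-differentiation, from aggregates kept for 3 further days in regular DMEM with BMP-4 and bFGF. Another 3 arrays were of aggregates before pre-differentiation, grown for 7 days in Knockout DMEM with leukaemia inhibitory factor and Knockout serum. Each array is a biological replicate by its label, and the methods speak of independent repeats of the in vitro experiments without naming the array cultures, so p-values measure the spread between these samples. The induction medium lists neither leukaemia inhibitory factor nor any serum, and the groups also differ in days of culture, so growth factors, medium and time cannot be told apart here. The protocol was meant to lead aggregates towards the early cardiac lineage. The paper reports that it did, from array values, qRT-PCR of Nkx2.5, and NKX2.5 and cardiac troponin T protein. It reports higher Nkx2.5 by array, while the Nkx2-5 row used here changed by -0.13 (limma adjusted p = 0.586). The cause of this difference was not tested, and these arrays do not measure protein. By limma's test 0 of 7 cardiomyocyte genes passed and 8 of 12 parietal endoderm genes rose, against 1.23% of all genes called higher. Likewise 0 of 10 naive pluripotency genes passed, at a median log2 change of -3.60. A count of 0 therefore does not show that a list was unchanged. The comparison asks how transcripts of lipid synthesis differ between the 2 states.

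Cells make cholesterol from acetyl-CoA through mevalonate and squalene. The transcription factors SREBP-1 and SREBP-2 switch on this pathway and fatty acid synthesis: when membranes are poor in sterol, the escort protein Scap carries them from the endoplasmic reticulum to the Golgi, where they are cleaved. Insig proteins hold Scap back when sterol is ample. Cholesterol taken up from outside passes through lysosomes by way of Npc1 and Npc2. An excess leaves the cell through the transporters Abca1 and Abcg1, whose genes are classical targets of the oxysterol-activated liver X receptors.

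After pre-differentiation 1 member, the lysosomal cholesterol transporter Npc1, passed the threshold. Most sterol synthesis enzymes had a lower mean and most other members a higher one, with overlapping groups in 8 of 15 enzymes and 8 of 13 others. Over all 28 members every after array was above every before array in 21.4%, and below in 21.4%. The shares of all genes were 11.8% and 28.2%, and those of genes above the background level given below 18.1% and 26.1%. Values are log2 signals as the authors deposited them, and changes are after minus before, tested with limma and Benjamini-Hochberg adjustment over all rows at a threshold of 0.05. Npc1 rose, 0 members fell and 27 did not pass. Over all genes 1.23% were called higher and 0.651% lower, so 1 call among 28 members is near the background. The share of higher genes among all calls was 65.4%, or 78.2% with each array centred on its median. Without adjustment, at a p under 0.05, 6 members were higher and 7 lower, against 11% and 19.7% of all genes. Of 15 sterol synthesis enzymes, 12 had a lower mean after pre-differentiation, with a median log2 change of -0.55. Over 6 housekeeping genes the median was -0.48, with 4 lower means, 0 past the threshold and 3 lower without adjustment. Of the 13 other members 12 had a higher mean, with a median of 0.73. Without before replicate 3 this was 9 of 13, with a median of 0.68, and the enzymes stood at 12 of 15 lower with a median of -0.78. Without after replicate 1 it was 10 of 13. The median over all genes was -0.16 and 68.3% of them had a lower mean, so a lower mean by itself is common on these arrays. Centring took this shift away (the median over all rows was -0.18 before it), and turned the direction of Hmgcs1 alone among the 28 members. With centred arrays the groups were separate in 4 enzymes below and 3 above, and in 6 other members above, against 12.8% and 19.9% of all genes. Among genes above the background level given below these shares were 17.1% and 25.2%, and over all 28 members 14.3% and 32.1%. Over all 28 members the median was 0.20.

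A change of at least 1 on the log2 scale, in either direction, set a few members apart from the rest by size. Idi1, Fdps, Mvd and Nsdhl were at -1 or less, 4 of 15 sterol enzymes, against 10.7% of all genes. Npc1, Abca1, Scd1, Abcg1 and Insig1 were at 1 or more, 5 of the 13 other members, against 8.45% of all genes. Among the 18586 genes with a mean above the background level the same shares were 17.3% and 13.6%. Over all 28 members they were 14.3% and 17.9%, near the shares of those genes. That level, 4.27, is the 95th percentile of 1717 olfactory and vomeronasal receptor genes, and every member lay above it on every array, the lowest value being 5.03.

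**Figure D1:**
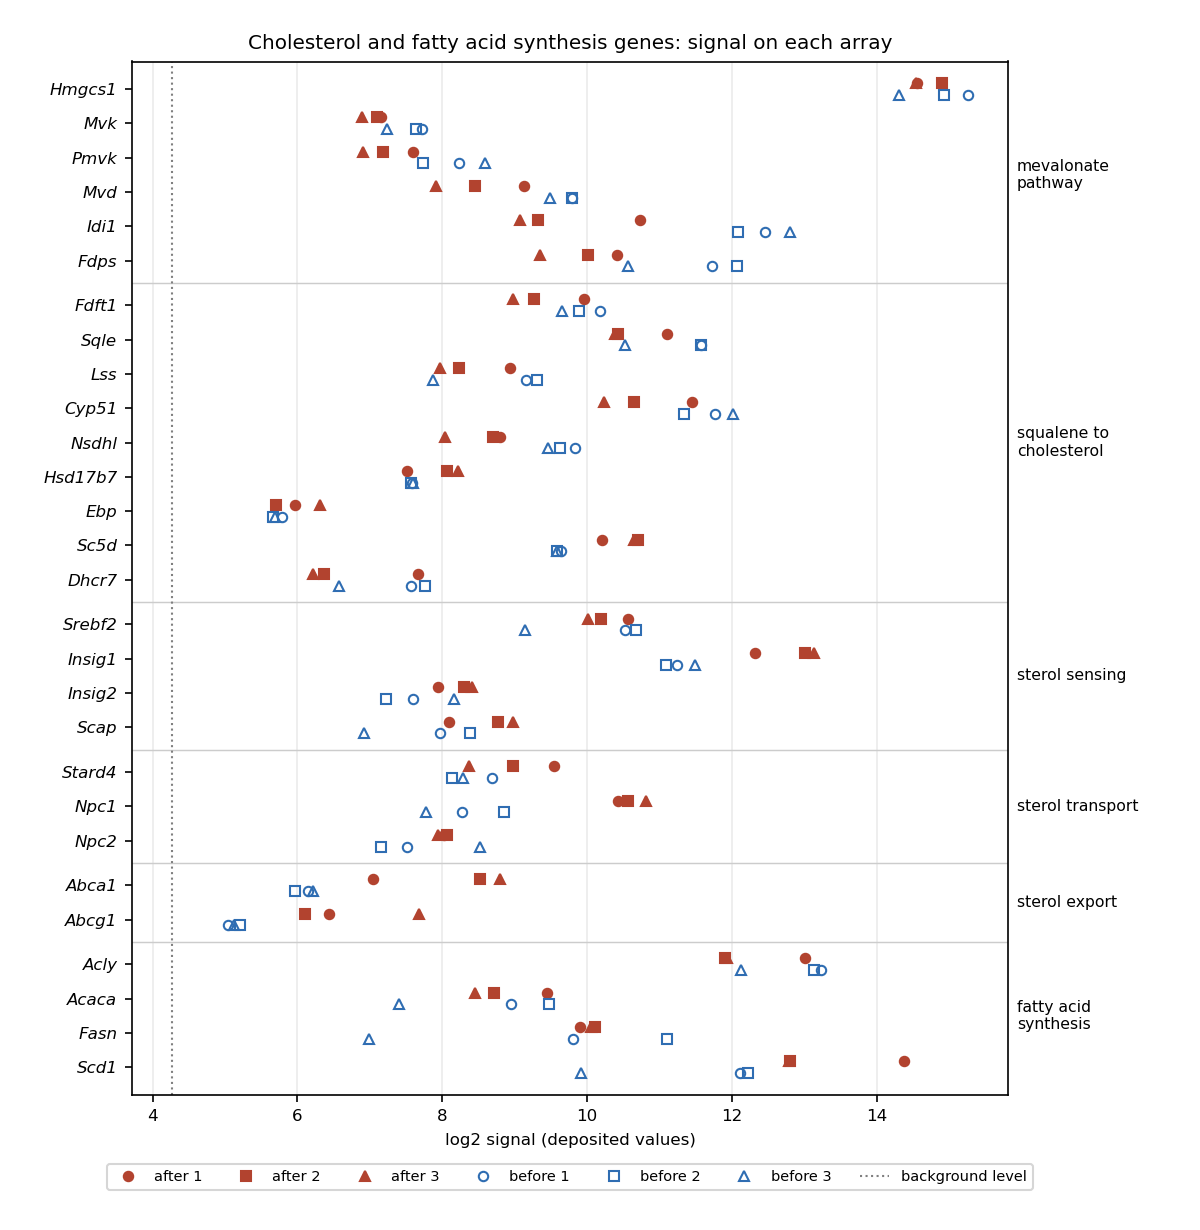
Log2 signal of the 28 genes on each array, with filled red symbols for the 3 arrays after and open blue symbols for the 3 arrays before pre-differentiation; circles, squares and triangles are replicates 1, 2 and 3, and the dotted line is the background level of 4.27. The after arrays lie left of the before arrays for most mevalonate enzymes and right of them for Insig1, Npc1, Abca1 and Abcg1.

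Promoter sequences are shown for 6 members, with motif matches marked. Idi1, Mvd and Nsdhl had lower means, and Insig1 and Sc5d higher ones. Among the 21 members with a promoter searched, only Hmgcs1 matched the letters taken for the sterol regulatory element. Sequences are from RefSeq (GRCm38.p6), 5′ to 3′ on the strand of the gene, from position -150 to -1 relative to the annotated start, or from -220 to -71 for Insig1. Capitals mark matches to TCACCCCAC (the sterol regulatory element), CCAAT (the NF-Y box) and CACGTG (the E-box) on either strand, so that an NF-Y box may read ATTGG.
Idi1 (chr13:8885456-8885605, + strand): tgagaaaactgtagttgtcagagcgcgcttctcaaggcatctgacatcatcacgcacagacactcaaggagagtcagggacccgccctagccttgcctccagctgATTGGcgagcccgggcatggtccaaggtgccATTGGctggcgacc
Mvd (chr8:122443423-122443572, − strand): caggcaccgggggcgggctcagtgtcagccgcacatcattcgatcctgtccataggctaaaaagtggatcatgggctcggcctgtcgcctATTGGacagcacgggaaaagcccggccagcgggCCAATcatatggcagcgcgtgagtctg
Nsdhl (chrX:72918371-72918520, + strand): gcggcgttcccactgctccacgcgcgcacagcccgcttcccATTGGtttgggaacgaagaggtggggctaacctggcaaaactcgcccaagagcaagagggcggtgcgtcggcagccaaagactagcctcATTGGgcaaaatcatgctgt
Hmgcs1 (chr13:119690201-119690350, + strand): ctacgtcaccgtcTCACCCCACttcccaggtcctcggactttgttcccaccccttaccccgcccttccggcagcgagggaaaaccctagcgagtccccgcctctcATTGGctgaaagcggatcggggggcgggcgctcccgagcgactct
Insig1 (chr5:28071192-28071341, + strand): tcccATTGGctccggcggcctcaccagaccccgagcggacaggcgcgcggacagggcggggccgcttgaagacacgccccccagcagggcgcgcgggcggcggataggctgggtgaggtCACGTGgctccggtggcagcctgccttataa
Sc5d (chr9:42264301-42264450, − strand): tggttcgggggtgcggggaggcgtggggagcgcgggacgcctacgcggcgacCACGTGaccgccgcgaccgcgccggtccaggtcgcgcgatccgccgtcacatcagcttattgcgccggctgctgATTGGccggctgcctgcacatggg

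NF-Y is a general promoter factor that works beside SREBPs at sterol genes, and its box was the most frequent of the motifs searched. Promoters were matched for 21 of the 28 members, leaving Abcg1, Fdft1, Fdps, Npc1, Scd1, Sqle and Stard4. The NF-Y box was in 18 of the 21 (85.7%), against 41.1% of 27025 genes with a promoter and 42.3% of 17492 protein-coding ones. Of 39 boxes, 26 lay within 120 bases before the start, in 14 members. The E-box was in 6 of 21 (28.6%), against 8.09% of genes. The letters TCACCCCAC, taken for the sterol regulatory element, were in 1 of 21, Hmgcs1, against 0.614% of genes. The looser form TCACNCCAC, which takes in the stricter form, was in the same 1, against 1.44%. Other forms of the element were not searched, so a promoter without a match may still hold such an element. The NF-Y box was present both in enzymes with a lower mean (Idi1, Mvd, Nsdhl) and in members with a higher one (Insig1, Sc5d). A match describes these letters in this window only.

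**Figure D2:**
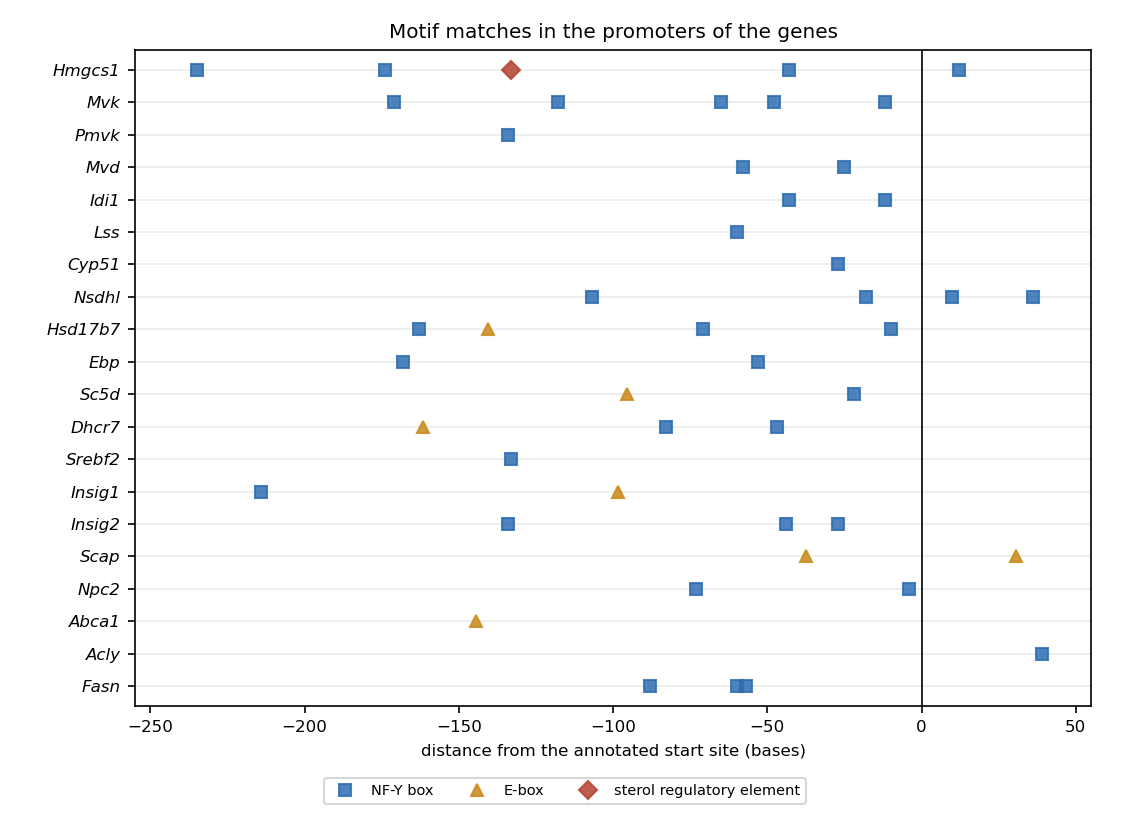
Positions of motif matches in promoters, by distance in bases from the annotated start site (0), for the 20 of 21 members with a match; blue squares are NF-Y boxes, yellow triangles E-boxes and the red diamond the sterol regulatory element of Hmgcs1. Dhcr7 and Scap have 2 annotated starts each, and the 2 marks of Scap are the same site seen from both.

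Enzymes of the mevalonate branch, which build the isoprenoid units, include Idi1, Fdps and Mvd, the 3 lowest changes among the 28 members. The row of Msmo1, a later enzyme given apart, was lower than Fdps and Mvd at -1.90. Of 6 mevalonate enzymes measured, 6 had a lower mean and 0 passed limma's test (0 higher and 5 lower without adjustment). In 5 of them the highest after array was below the lowest before array, as it was in 28.2% of all genes. Their median change was -1.07. Idi1, which isomerises isopentenyl diphosphate, was at 10.73, 9.32 and 9.07 after pre-differentiation, against 12.45, 12.08 and 12.79 before it. The groups did not overlap, and replicate 1 was the highest of the after arrays. The log2 change was -2.73 (standard error 0.47, 0.150-fold, adjusted p = 0.0583).

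Fdps, which makes farnesyl diphosphate, was at 10.41, 10.00 and 9.35 after, against 11.73, 12.07 and 10.57 before. Before replicate 3 lay close to the after arrays, and the change was -1.53 (standard error 0.46, adjusted p = 0.133). Mvd, the decarboxylase that yields isopentenyl diphosphate, was at 9.13, 8.45 and 7.91 after, against 9.79, 9.78 and 9.48 before. Its arrays before pre-differentiation lay close together and those after spread below them, with a change of -1.19 (standard error 0.32, adjusted p = 0.112).

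The kinases Pmvk and Mvk had changes of -0.95 (adjusted p = 0.129) and -0.48 (adjusted p = 0.163), again without overlap of the groups. Hmgcs1, which condenses acetoacetyl-CoA with acetyl-CoA, was the exception in this branch. It averaged 14.66 ± 0.20 after and 14.83 ± 0.49 before (SD, n = 3 each). Its change of -0.16 (95% interval -0.83 to 0.50) became 0.15 after quantile normalization and 0.017 after centring.

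The later enzymes, from squalene to cholesterol, were mixed. Of 9 measured, 6 had a lower and 3 a higher mean, and 0 passed limma's test (1 higher and 2 lower without adjustment). Nsdhl, which removes the C-4 methyl groups of sterols, was at 8.80, 8.70 and 8.04 after, against 9.82, 9.62 and 9.46 before. All its after arrays were below those before pre-differentiation, with a change of -1.12 (standard error 0.24, adjusted p = 0.0780). Cyp51, the lanosterol demethylase, had a change of -0.93 (adjusted p = 0.178), and after replicate 1 at 11.44 overlapped the lowest before array at 11.34.

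The row shared by both names of Msmo1, which acts beside Nsdhl on the same methyl groups, was at 8.15, 7.38 and 7.25 after, against 9.71, 8.67 and 10.10 before. Its change was -1.90 (standard error 0.43, adjusted p = 0.0856), and the groups did not overlap. Fdft1 and Sqle, which make squalene and its epoxide, had changes of -0.50 and -0.58. Lss, which closes the sterol rings, and Dhcr7, which catalyses the last step of one branch, had -0.40 and -0.55. In each of these 4 the groups overlapped.

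Sc5d, the lathosterol desaturase that comes just before Dhcr7, went the other way. It was at 10.20, 10.70 and 10.65 after, against 9.63, 9.58 and 9.58 before. The groups were separate, as in 11.8% of all genes with higher after arrays, and the change was 0.92 (standard error 0.17, 1.89-fold, adjusted p = 0.0619). Hsd17b7 and Ebp, a sterol reductase and a sterol isomerase, had small positive changes of 0.35 and 0.28 with overlapping groups.

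**Figure D3:**
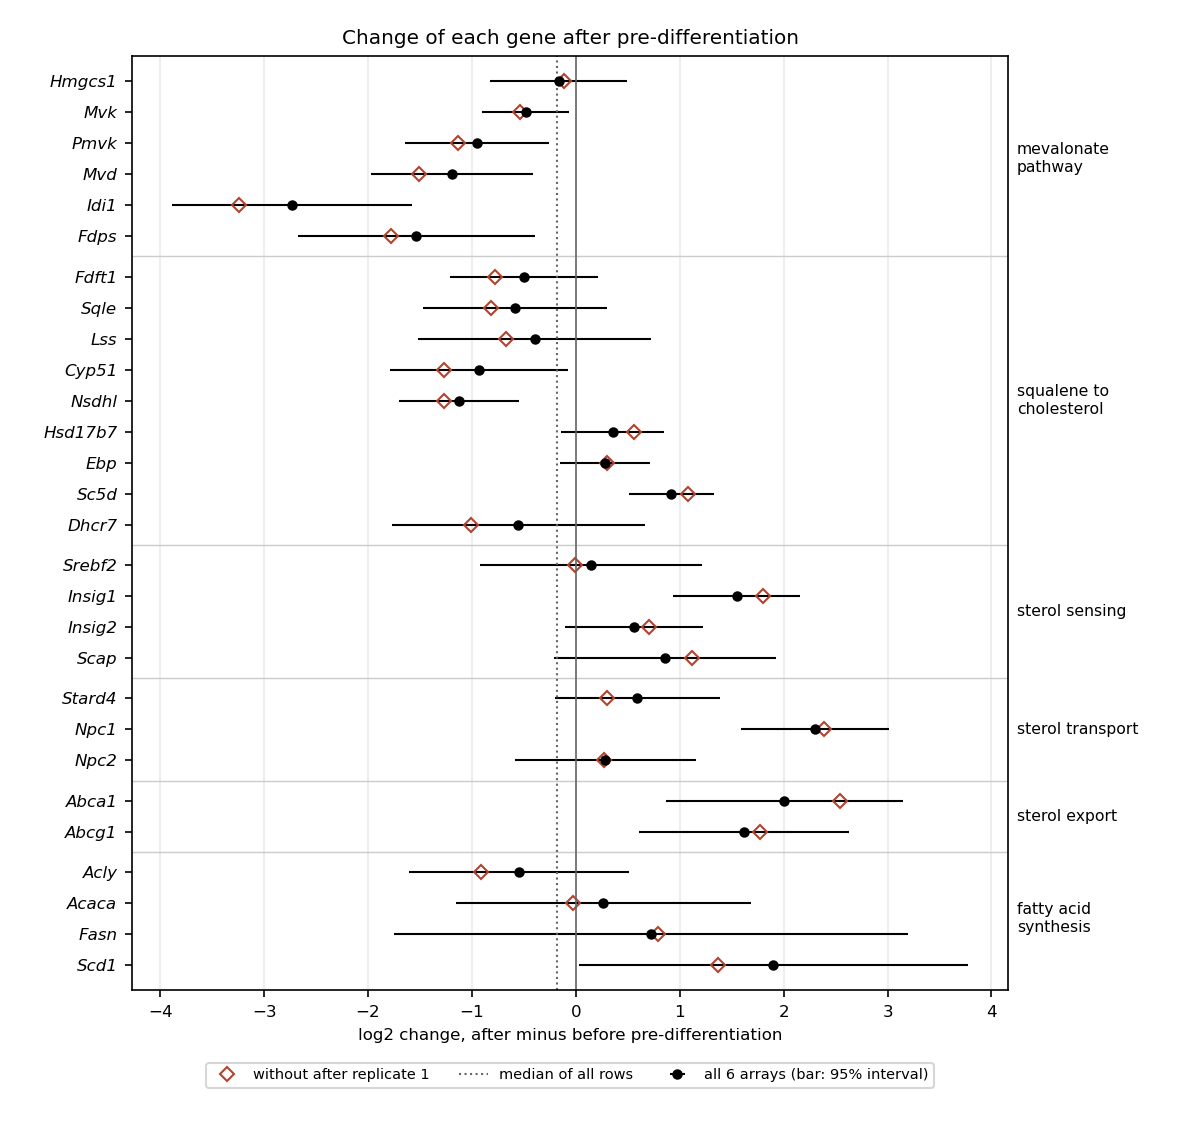
Log2 change, after minus before pre-differentiation, for each gene from limma: black points with 95% intervals use all 6 arrays, red diamonds leave out after replicate 1, and the dotted line is the median over all rows, -0.18. Idi1 has the lowest change at -2.73 and Npc1 the highest at 2.30.

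Among the sterol sensors Insig1 had the largest change. It was at 12.32, 13.01 and 13.13 after, against 11.24, 11.08 and 11.49 before. Every after array was above every before array. The change was 1.55 (standard error 0.25, 2.92-fold, adjusted p = 0.0531), and it passed at 1.86 after quantile normalization (adjusted p = 0.0434) and at 1.73 after centring (adjusted p = 0.0433). Over the settings tried its adjusted p was between 0.00761 and 0.212.

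Insig2, the second Insig gene, was at 7.94, 8.30 and 8.42 after, against 7.60, 7.23 and 8.16 before, and the groups overlapped. Its change was 0.56 (standard error 0.27, adjusted p = 0.253). The log2 signal of Insig1 minus that of Insig2 averaged 4.60 after and 3.61 before. The log2 change of Insig1 exceeded that of Insig2 by 0.99, with a two-sided exact permutation p of 0.1, the smallest that 3 arrays against 3 allow. Signals of different rows are not levels per transcript, so the comparison concerns the changes alone.

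Srebf2, which encodes SREBP-2, did not differ beyond the spread between arrays. It was at 10.56, 10.19 and 10.01 after, against 10.52, 10.67 and 9.14 before, a change of 0.15 (95% interval -0.92 to 1.21). Its direction turned without before replicate 3, to -0.34. Scap had a change of 0.86 (95% interval -0.21 to 1.93) with before replicate 3 the lowest array at 6.91, and 0.44 without that array.

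Npc1, the membrane protein that moves cholesterol out of lysosomes, was the member past the threshold. Its signal was 10.42, 10.57 and 10.81 after pre-differentiation, against 8.27, 8.85 and 7.78 before it. The lowest after array lay well above the highest before array. The change was 2.30 (standard error 0.29, adjusted p = 0.0412), or 4.93-fold (95% interval 3.01 to 8.07). Leaving out an array ended the call for 4 of the 6, namely replicates 1 and 3 before and replicates 2 and 3 after, with adjusted p between 0.0771 and 0.176 and changes between 2.04 and 2.32. In each of these 4 settings 0 of all genes passed. The replicate number as a block also ended the call of Npc1 (adjusted p = 0.109), again with 0 genes passing. Trend and robust variances ended it as well (adjusted p = 0.0594). Over all settings tried the adjusted p was between 0.0196 and 0.176, and the change was positive in each.

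Npc2, the soluble partner that hands cholesterol to Npc1, had a change of 0.28 (95% interval -0.58 to 1.15). Stard4, a cytosolic sterol carrier, had 0.59 (95% interval -0.20 to 1.39). Both had overlapping groups. In the case of Npc2 the after arrays lay between 7.94 and 8.06, inside the wider range of 7.15 to 8.52 before.

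Both sterol exporters were higher on average. Abca1, which loads cholesterol onto apolipoprotein A-I, was at 7.04, 8.52 and 8.79 after, against 6.14, 5.96 and 6.22 before. After replicate 1 lay between the other after arrays and the before arrays. The change was 2.01 (standard error 0.46, 4.02-fold, adjusted p = 0.0877). Abcg1, which exports sterol to lipoprotein particles, was at 6.44, 6.10 and 7.68 after, against 5.03, 5.21 and 5.12 before. After replicate 3 stood above the other after arrays, and the change was 1.62 (standard error 0.41, 3.07-fold, adjusted p = 0.103).

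In each of the 4 fatty acid enzymes before replicate 3 was the lowest of the before arrays. Fasn, the fatty acid synthase, was at 9.90, 10.11 and 10.06 after, against 9.80, 11.10 and 6.99 before. The after arrays agreed within a narrow range while the before arrays spread widely on both sides of it, and the change was 0.73 (95% interval -1.75 to 3.20). Scd1, the stearoyl-CoA desaturase, was at 14.38, 12.79 and 12.78 after, against 12.11, 12.22 and 9.92 before. Its groups were separate, with after replicate 1 the highest and before replicate 3 the lowest, and the change was 1.90 (standard error 0.76, adjusted p = 0.195), or 1.15 without before replicate 3.

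Acly, which makes cytosolic acetyl-CoA from citrate, had a change of -0.54, and Acaca, the acetyl-CoA carboxylase, one of 0.26; the groups overlapped in both. Without before replicate 3 the changes of Fasn and Acaca turned to -0.43 and -0.34.

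Before replicate 3 stood apart for many of these genes. It lay at least 1 log2 unit below the mean of before replicates 1 and 2 in 10 of 28 members, against 3.92% of all genes and 6.33% of those above the background level. The gap was -3.47 for Fasn, -2.24 for Scd1, -1.81 for Acaca, -1.46 for Srebf2 and -1.36 for Lss. Over genes above the background level the median gap was 0.10, so the array as a whole was not dimmer. In 4 of the 15 sterol enzymes, among them Idi1, Pmvk and Cyp51, the same array was the highest of the before arrays. Without it the median change over the 28 members was -0.38, 16 of them had a lower mean, and 0 passed limma's test in either direction (likewise when replicate 1 before, or replicate 2 or 3 after, was left out). In these settings 0 of all genes passed, so the count is not particular to the members. No label names a difference for the culture of before replicate 3.

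**Figure D4:**
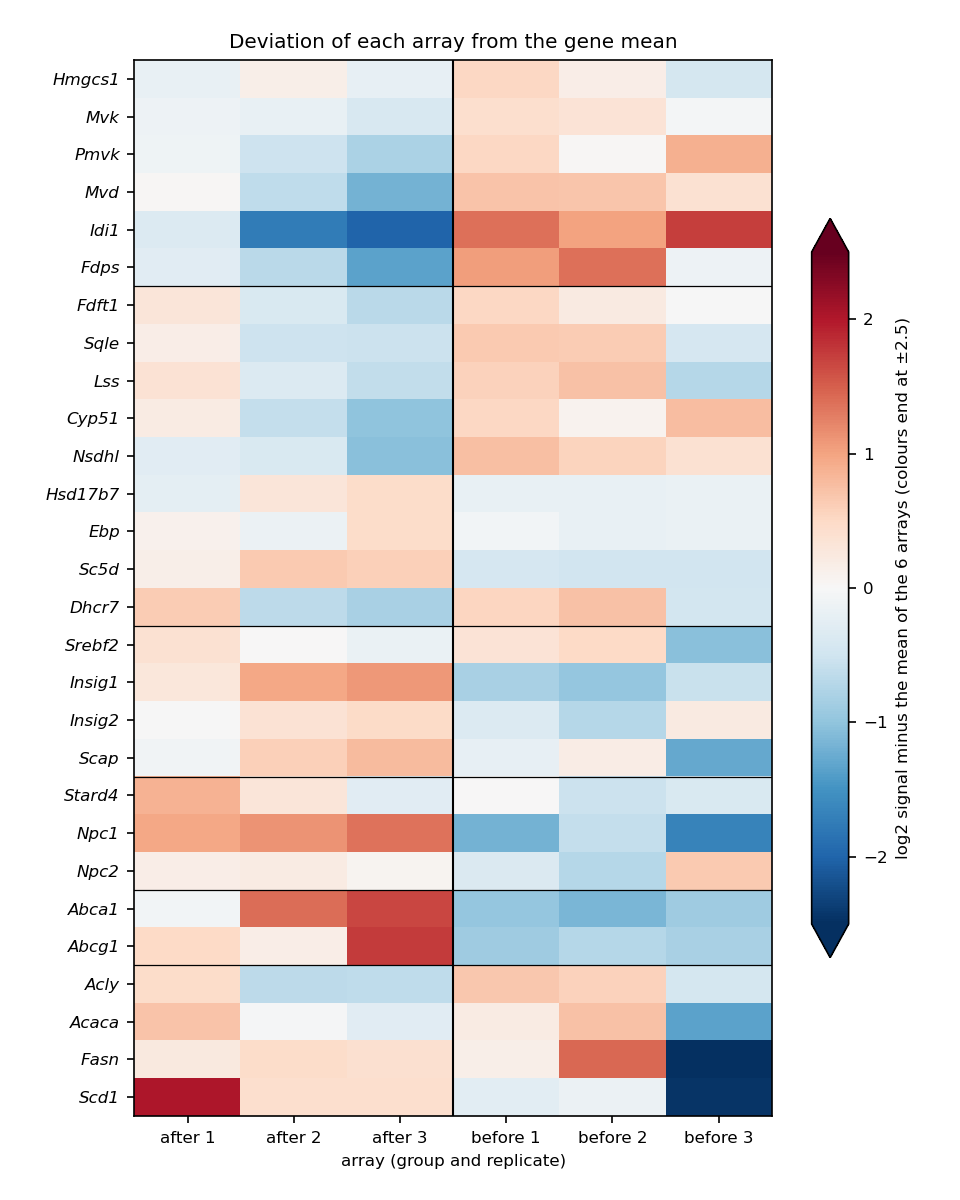
Deviation of each array from the gene's mean over 6 arrays, in log2 units (red above, blue below), with the after arrays left of the black line and the before arrays right of it. Fasn and Scd1 are lowest in before 3, Idi1 is low in after 2 and after 3, and after 1 is pale for most sterol enzymes.

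After replicate 1 stood nearer the before arrays for the sterol enzymes. It was the highest of the after arrays in 11 of 15 enzymes, with a median gap of 0.70 to the mean of after replicates 2 and 3, while over genes above the background level that median was 0.06. On the leading principal component of the 5000 most variable rows (76.6% of their variance) it lay at -2.48, with after replicates 2 and 3 at 131.4 and 130.9 and the before arrays between -109.3 and -63.9. Without it 4 members were lower by limma (Idi1, Mvd, Nsdhl and Cyp51) and 4 higher (Abca1, Insig1, Npc1 and Sc5d), against 7.49% and 7.81% of all genes. The changes were then -3.25 for Idi1 (adjusted p = 0.00482), 2.54 for Abca1 (adjusted p = 0.00332) and 1.80 for Insig1 (adjusted p = 0.00761). The row of Msmo1 was at -2.18 (adjusted p = 0.0475). The direction of these genes was the same with and without the array.

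Markers of cell types also varied among the after arrays. Over 10 naive pluripotency genes the mean log2 signal was 11.04, 6.43 and 6.95 after, against 12.19, 11.74 and 12.01 before, with 0 past limma's threshold (7 lower without adjustment, and 7 lower without after replicate 1). Pou5f1, which defines pluripotent cells, was at 14.48, 6.18 and 6.90 after, against 15.25, 14.81 and 15.71 before. All 12 parietal endoderm genes had separate groups and 8 rose, with list means of 12.42 to 13.95 after and 8.04 to 8.82 before. Of 12 visceral endoderm genes, which include apolipoproteins, 2 rose (Afp and Dab2), with means of 9.36 to 11.14 after and 5.72 to 6.20 before. After replicate 1 was the highest after array in 4 of these 12 genes and the lowest in 6. Over 6 fibroblast genes 0 passed (6 higher without adjustment) and the means were 6.55 to 14.65 after and 4.54 to 4.58 before. Over 7 cardiomyocyte genes 0 passed (1 higher without adjustment) and the means were 5.07 to 6.46 after and 4.97 to 5.09 before. Of these genes 6 had a higher mean, with the largest change for Tnnt2 (1.60, with 8.76 in after replicate 2). The 1 with a lower mean was Nkx2-5, between 4.59 and 5.04 on all arrays. The part of these cell types in the lipid gene values was not tested. In RNA of whole aggregates fewer cells of a type and less RNA per cell cannot be told apart.

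Other lipid genes were counted from lists around the members. Of 60 measured, 7 rose and 0 fell (24 higher and 4 lower without adjustment), and their median change was 0.35. The shares over all genes were 1.23% and 0.651%, or 11% and 19.7% without adjustment. Among 14 genes of sterol uptake, transport and export, Lipa, the lysosomal lipase that frees cholesterol from its esters, rose. It was at 11.55, 12.89 and 12.29 after, against 8.10, 8.49 and 9.27 before, a change of 3.62 (standard error 0.44, 12.3-fold, adjusted p = 0.0390). The lowest after array lay well above the highest before array.

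Mylip, which marks lipoprotein receptors for degradation and is a known liver X receptor target like Abca1, was picked out after its values were seen. It was at 6.55, 8.32 and 8.01 after, against 5.41, 5.26 and 5.25 before. After replicate 1 was the lowest of its after arrays, as in 29 of the 60 genes of these lists. For Mylip the groups did not overlap. The change was 2.32 (adjusted p = 0.0732). Among the other known targets in the same list, Abcg5 and Abcg8 had changes of -0.18 and -0.21, with every array below the background level, and Apoe one of 0.18 with overlapping groups. Nr1h3, which encodes a liver X receptor, was between 4.59 and 4.72 after and between 4.91 and 5.03 before.

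Among 7 other sterol sensing genes, Erlin2, a component of the degradation machinery of the endoplasmic reticulum, rose. It was at 12.70, 13.05 and 13.57 after, against 11.23, 10.86 and 11.43 before, a change of 1.94 (standard error 0.27, adjusted p = 0.0458). Of 4 other genes of sterol and isoprenoid synthesis 0 passed limma's test (2 higher and 0 lower without adjustment). Nus1 and Dhdds, the subunits of the enzyme that makes dolichol precursors, had changes of 0.73 and 0.77 without overlap of the groups. They use farnesyl diphosphate, the product of Fdps.

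Among 24 other genes of fatty acid synthesis and elongation 4 rose and 0 fell. Me1, the malic enzyme that supplies NADPH, had the largest change of all the lipid genes measured. It was at 13.81, 14.01 and 14.57 after, against 10.03, 9.85 and 10.40 before, a change of 4.04 (standard error 0.25, 16.4-fold, adjusted p = 0.0200). Elovl1, an elongase of very long chains, rose by 2.39 (adjusted p = 0.0457) and Lpin1, a phosphatidate phosphatase, by 2.03 (adjusted p = 0.0479). Dgat2, which makes triglyceride, is named to complete the count and rose by 1.80 (adjusted p = 0.0497).

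Elovl6, which elongates the product of Fasn, was picked out after its values were seen. It was at 12.28, 10.25 and 10.28 after, against 13.70, 12.75 and 12.67 before, a change of -2.11 (adjusted p = 0.130). Of 11 genes of fatty acid oxidation 1 rose, Acadvl, the mitochondrial dehydrogenase of very long chains. It was at 7.97, 8.28 and 8.35 after, against 6.85, 6.70 and 7.01 before, a change of 1.35 (standard error 0.16, adjusted p = 0.0376). With replicate 1 or 3 before, or replicate 2 or 3 after, left out, 0 of the 60 passed limma's test, and so did 0 of all genes. With replicate 2 before left out 1 was higher, among 101 genes higher and 66 lower. With replicate 1 after left out 16 were higher and 4 lower, against 7.81% and 7.49% of all genes.

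**Figure D5:**
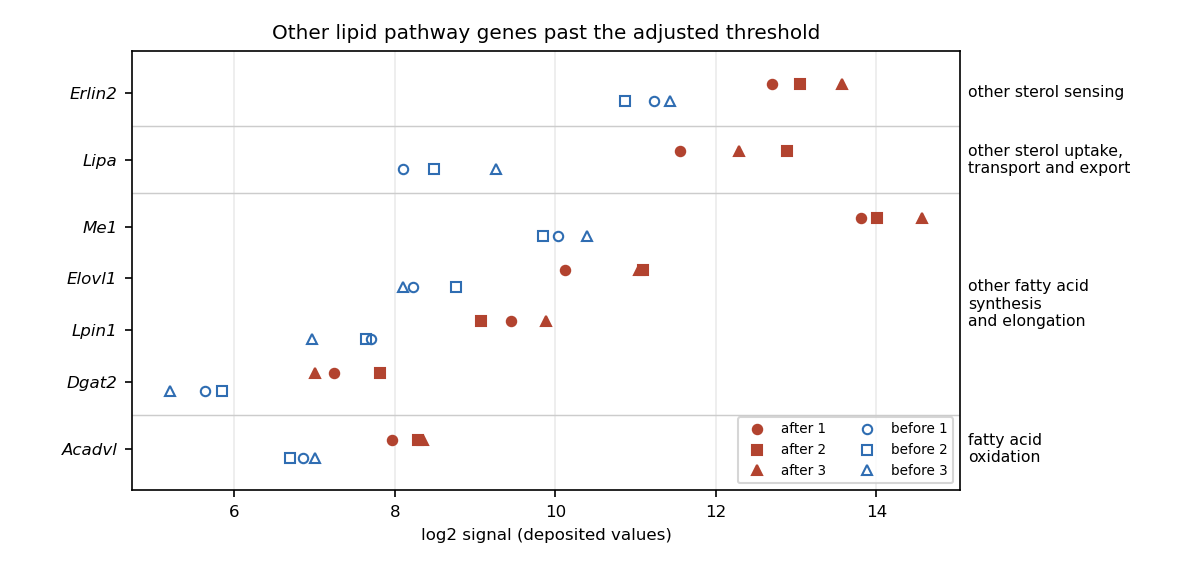
Log2 signal on each array of the 7 other lipid genes past the adjusted threshold, with filled red symbols for after and open blue symbols for before pre-differentiation (circle, square and triangle for replicates 1, 2 and 3). In each gene all 3 after arrays lie to the right of all 3 before arrays, with the widest distance for Me1.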

How the data were processed

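The arrays (3 after and 3 before pre-differentiation, grouped by sample title) were Clariom D mouse arrays that the authors processed with Transcriptome Analysis Console and deposited as log2 signals, 1 column per array. Its version, summarization, background correction and genome build were not given in the sources used here. Array medians were between 4.17 and 4.47, and no further scaling was applied. The number of arrays limits the precision.

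Of 72688 rows, 31 whose identifier starts with AFFX were left out and 72657 fitted in R 4.3.3 by limma 3.58.1 (lmFit, then eBayes; two-sided p, Benjamini-Hochberg adjustment), among them 6701 control genes and spike-ins. The methods name no array test; Student's test, named there for other assays, is called the methods' test. Rows with 1 symbol (30638) named genes, 330 of them updated through RefSeq, and 2176 rows with several named none. The planned pairs Srebf1 with Srebf2 and Scd1 with Scd2 could not be compared for that reason. All members are named. Values per array are given for those past the threshold, those with separate groups and a change of at least 1, and a few others. Of the other lists, up to 3 genes past the threshold are named in each direction, or 2 with separate groups. Members and lists were chosen with earlier results of these data known. The fit was tested on simulated arrays. Deviations of arrays with the same replicate number correlated at -0.03, 0.14 and -0.08. With 3 arrays per group this cannot show whether cultures were paired, and the main fit used no pairing.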

Additional observations from a re-analysis of the deposited data

How the results depend on the processing

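With quantile normalization or median centring, 2 members were higher, among 529 genes higher and 190 lower and 484 and 135. With the rows above background, the brighter part of the rows, or the control rows left out, 2 were higher and 1 lower; genes called were 643 and 418, 672 and 447, and 538 and 377. These last settings test fewer rows. With trend and robust variances 0 members and 2 other pathway genes were higher, among 137 genes higher and 30 lower. The methods' test gave 5 members higher and 6 lower, 20 other pathway genes higher and 6 lower, and 2317 and 5539 genes unadjusted, and 0 of each adjusted. With the replicate number as a block (replicate block) 0 members, 0 other pathway genes and 0 genes passed. By their labels the arrays share only a number, and 1 of 3 after arrays correlated most with the before array of that number.

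Leaving out each array in turn gave 0 to 4 members higher and 0 to 4 lower, 0 to 2351 genes higher and 0 to 2255 lower, 0 to 16 other pathway genes higher and 0 to 4 lower, and a member median between -0.38 and 0.25. The highest counts came without after replicate 1, and the median of -0.38 without before replicate 3. Directions that turned were those of Hmgcs1 (0.15 with quantile normalization, 0.017 with centring, 0.052 without before replicate 1), Srebf2 (-0.34 without before replicate 3, -0.0074 without after replicate 1), Acaca (-0.34 and -0.023 without the same arrays), Fasn (-0.43 without before replicate 3) and Npc2 (-0.0037 without before replicate 2). Over the arrays left out in turn the highest values were 0.43 for Srebf2, 0.68 for Npc2, 1.63 for Fasn and 0.70 for Acaca. None of these passed the test in either setting. With the row of Msmo1 counted, an alternative added after the annotation was seen, 1 member of 29 was higher and 0 lower. Where the same rows and arrays were used, the cause was not tested. Groups of 3 arrays are too small for a check of single outlying arrays.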
